A study of Mus musculus with 4 samples.

Results

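The genes described here encode 8 secreted proteins of the acute-phase response and of a related chitinase-like family: the serum amyloid A genes Saa1, Saa2 and Saa3, the lipocalin Lcn2, haptoglobin (Hp), the chitinase-like protein Chi3l1, the long pentraxin Ptx3 and orosomucoid (Orm1). They were picked by name, with their difference between the groups already known, and make up 8 of the 25413 genes in the count table. Of these 8, 7 were among the 12478 genes with enough counts to be tested, and Saa1 was not. RNA was measured by bulk sequencing in 4 libraries of wildtype EpH4 cells, an epithelial line from the mouse mammary gland kept in 2D culture. The Control group was 2 libraries of untreated cells and the PM2.5 group was 2 libraries of cells exposed to PM2.5, that is, fine particles from polluted air. All 4 libraries share the line, the culture format and a single batch value. The labels give no particle dose or exposure time. Nothing in them ties replicates to separate cultures, so p-values measure only the spread between these libraries, which may be technical. The comparison asks which transcripts differ after particle exposure.

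Acute-phase proteins are secreted proteins whose production changes during inflammation or injury. The liver makes most of them for the blood, in response to cytokines of the interleukin-6 and interleukin-1 families that act through STAT3, C/EBP and NF-kB transcription factors. Epithelia, macrophages and fat also make several of them locally, and the mammary gland is known to express Saa3, Lcn2 and Chi3l1, the last of which was described early as a protein of the regressing gland.

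Libraries held 18548478 to 26206329 gene counts, and the second Control library was the deepest. Levels are given as CPM, counts scaled to library size with trimmed-mean (TMM) factors. A gene with 0 counts can lie anywhere up to 3 counts, which is 0.116 to 0.158 CPM depending on the library. Of 16 epithelial markers, 14 averaged below 1 CPM and 6 had no count in any library, Epcam, Krt18 and Krt19 among them, so the labelled cell type was not borne out by its usual markers. The summed level of the 16 was 53.8 to 56.5 CPM in Control and 20.6 to 21.96 CPM in PM2.5, and came mainly from Krt14 and Cdh3. The sum over 12 fibroblast markers, led by Col1a2 and Pdgfra, was 2740 to 2860 CPM in Control and 2493 to 2621 CPM in PM2.5. Most of it was Col1a2, at means of 2129 CPM in Control and 1825 CPM in PM2.5. Of the 12 fibroblast markers, 4 averaged below 1 CPM, and Fap had no count in any library. Among the same 12, 4 were called higher, such as Dcn (63.9 to 251 CPM), and 4 lower, such as Postn (149.7 to 66.4 CPM) and Col1a2 itself. Hepatocyte markers summed to at most 0.210 CPM, with Alb, Ttr and Apoa1 at 0. In bulk samples, fewer cells of a type and less RNA per cell cannot be told apart.

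All 8 genes were higher in both PM2.5 libraries than in both Control libraries. Over the 17974 genes with any count, 31.3% had that pattern, as did 35.9% of the genes tested. The fit over all genes (edgeR's quasi-likelihood test, Benjamini-Hochberg adjusted p below 0.05) called 7 of the 7 tested members higher, where it called 19.2% of all tested genes higher and 20.4% lower. Because the members were chosen from this contrast, neither count is a test of them, and no p-value is given for any member. Together the 8 genes summed to 360 and 541 CPM in the Control libraries and to 1611 and 1676 CPM in the PM2.5 libraries. Saa3 and Lcn2 took 92.1% to 97.3% of the members' counts in each library, with no allowance for gene length. The fold of mean CPM was 72.0 for Chi3l1, 10.8 for Hp, 8.55 for Saa3, 5.44 for Ptx3, 3.95 for Orm1 and 2.27 for Lcn2.

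**Figure D1:**
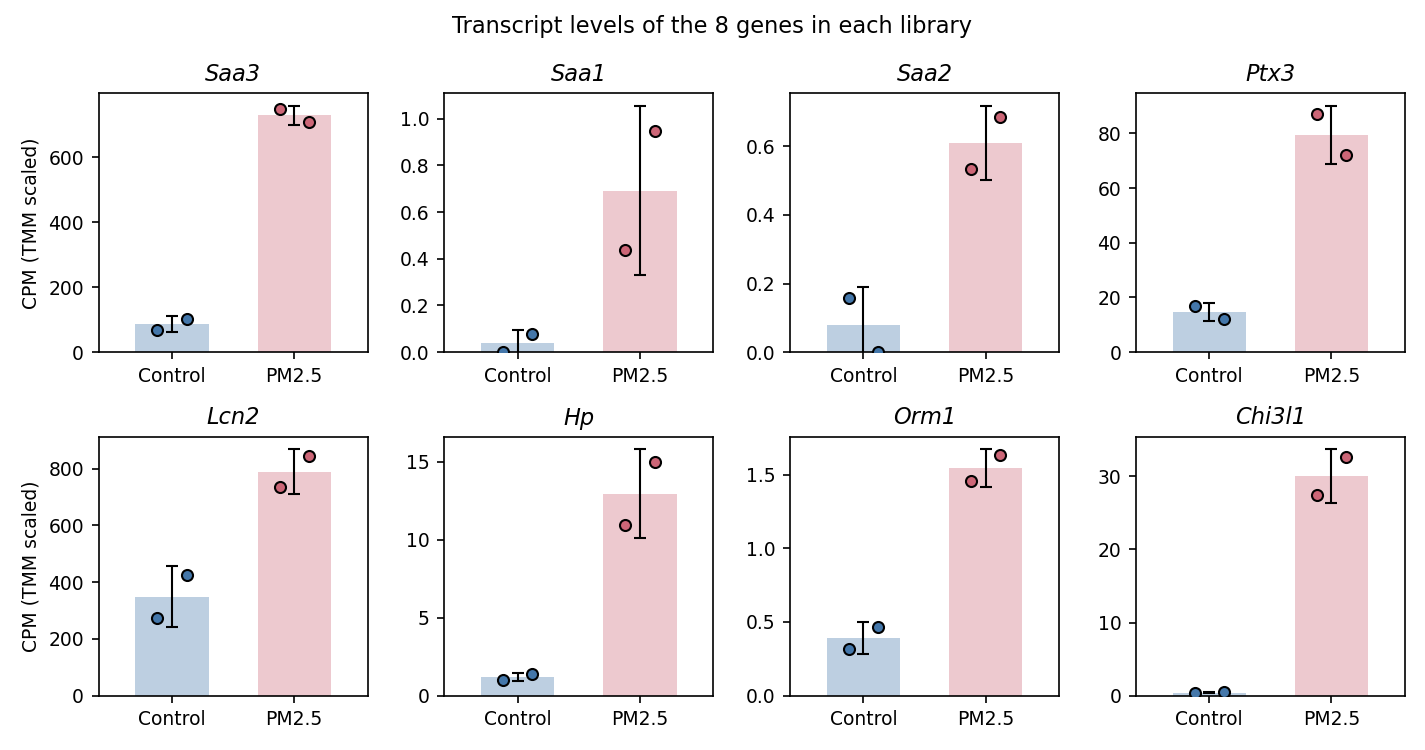
CPM of each of the 8 genes, with 1 panel and 1 linear axis from 0 per gene. Points are the 2 Control and the 2 PM2.5 libraries, bars the group means and error bars the SD. Every PM2.5 point lies above every Control point of the same gene, and the smallest ratio between libraries is that of Lcn2, at 1.73.

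Serum amyloid A proteins are small apolipoproteins carried on high-density lipoprotein. Saa1 and Saa2 are the main liver forms in the blood, and Saa3 is the form made chiefly outside the liver. Saa3 (ENSMUSG00000040026, chromosome 7, 46361422 to 46365124, minus strand, GRCm39) had 67.8 and 103 CPM in Control and 749 and 708 CPM in PM2.5. Both PM2.5 libraries lay far above both Controls, and the smallest ratio between any PM2.5 and any Control library was 6.90. The means were 85.2 ± 24.6 and 728 ± 29.4 CPM (SD, n = 2 each), and the log2 fold change was 3.09. The mean of Saa3 was 643 CPM higher in PM2.5 than in Control.

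Saa1 (ENSMUSG00000074115, chromosome 7, 46389921 to 46392404, minus strand, GRCm39) had 0 and 2 counts in Control and 9 and 18 in PM2.5. Saa2 (ENSMUSG00000057465, chromosome 7, 46401214 to 46403737, plus strand, GRCm39) had 3 and 0 counts in Control and 11 and 13 in PM2.5. For both genes the groups did not overlap, but the Control side rests on 2 and 3 reads. The ratio of summed, depth-scaled counts was 15.3 for Saa1, with an exact 95% interval of 3.84 to 132.5, and 9.05 for Saa2, with an interval of 2.75 to 46.9. These intervals cover counting error only. Mean levels in PM2.5 were 0.692 ± 0.362 CPM for Saa1 and 0.609 ± 0.107 CPM for Saa2 (SD, n = 2).

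Saa1 and Saa2 are near copies, so reads counted for one may come from the other, which was not tested. Their coding sequences in the GRCm38 annotation were 95.1% identical, whereas Saa3 was 76.1% identical to Saa1 and 75.1% to Saa2. A further deposited count, total gene reads, is not defined in the file headers. The raw count was 98.1% to 99.0% of it for Saa3. It was 81.8% to 100% for Saa1 in the 3 libraries with any read. For Saa2 it was 73.3% to 100%, apart from the second Control library, which had 2 total gene reads and a raw count of 0.

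The Saa genes lie side by side on chromosome 7, and the genes around them, which are not among the 8, gave a local reference. Saa4 is also on lists of related genes described below, which were drawn up with earlier results of these data known. Its p-value is therefore descriptive. Saa4, a constitutive member of the family between Saa3 and Saa1, had 8 and 10 counts in Control and 23 and 28 in PM2.5. It rose by 1.67 ± 0.40 on the log2 scale (SE; edgeR adjusted p = 0.00788), a call lost with DESeq2 (adjusted p = 0.0567) and without the second PM2.5 library (edgeR adjusted p = 0.102). Saal1, the next counted gene beyond Saa3, had means of 35.7 and 36.2 CPM with overlapping groups and was not called (log2 fold change 0.02, edgeR adjusted p = 0.844). Hps5, the next counted gene beyond Saa2 and a subunit of a lysosome-related organelle complex, rose from 42.5 to 50.3 CPM (log2 fold change 0.24 ± 0.07, SE; edgeR adjusted p = 0.0146). That call was lost with DESeq2 (adjusted p = 0.0716) and without either PM2.5 library (edgeR adjusted p = 0.0616 and 0.0864). Within 5 Mb of the Saa genes, 105 genes were tested, of which 16 were called higher and 15 lower, and their median log2 fold change was 0.02. Over all tested genes, 19.2% were called higher and 20.4% lower.

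Promoter sequences are shown for Saa3 and Saa1, family members on the same stretch of chromosome 7 that differ widely in counts, and for Lcn2, Chi3l1 and Ptx3, the other members with the most counts in PM2.5. Each is 300 bases from RefSeq (build GRCm38.p6), from 250 before to 50 after the gene start, written 5′ to 3′ on the gene's strand. Capitals mark matches on either strand to the C/EBP motif TTNNGNAA or to the NF-kB consensus. The regions are chr7:46715627-46715926 (minus strand) for Saa3, chr7:46742931-46743230 (minus) for Saa1, chr2:32387690-32387989 (minus) for Lcn2, chr1:134181906-134182205 (plus) for Chi3l1, listed there as Chil1, and chr3:66219637-66219936 (plus) for Ptx3.
Saa3: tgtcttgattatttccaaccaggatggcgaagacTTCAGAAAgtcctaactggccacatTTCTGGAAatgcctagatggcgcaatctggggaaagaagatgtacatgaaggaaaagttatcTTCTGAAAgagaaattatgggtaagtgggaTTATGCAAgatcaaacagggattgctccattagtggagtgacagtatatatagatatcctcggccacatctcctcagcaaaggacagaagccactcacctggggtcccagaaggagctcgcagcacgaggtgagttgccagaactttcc
Saa1: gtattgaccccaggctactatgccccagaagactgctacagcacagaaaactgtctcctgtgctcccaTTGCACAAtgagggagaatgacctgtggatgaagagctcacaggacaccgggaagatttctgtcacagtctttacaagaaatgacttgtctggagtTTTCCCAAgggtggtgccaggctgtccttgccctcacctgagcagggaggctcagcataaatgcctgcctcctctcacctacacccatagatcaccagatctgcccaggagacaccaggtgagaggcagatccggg
Lcn2: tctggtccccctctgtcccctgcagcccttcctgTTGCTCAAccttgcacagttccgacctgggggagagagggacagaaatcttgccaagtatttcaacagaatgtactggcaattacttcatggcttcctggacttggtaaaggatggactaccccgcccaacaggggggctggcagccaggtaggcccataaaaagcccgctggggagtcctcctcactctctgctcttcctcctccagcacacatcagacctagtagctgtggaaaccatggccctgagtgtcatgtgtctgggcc
Chi3l1: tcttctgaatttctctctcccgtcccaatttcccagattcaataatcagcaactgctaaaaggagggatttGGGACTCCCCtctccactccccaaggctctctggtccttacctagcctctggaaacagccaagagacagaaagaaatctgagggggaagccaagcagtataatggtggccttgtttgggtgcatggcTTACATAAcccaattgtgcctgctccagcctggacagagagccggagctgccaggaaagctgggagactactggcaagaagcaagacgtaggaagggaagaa
Ptx3: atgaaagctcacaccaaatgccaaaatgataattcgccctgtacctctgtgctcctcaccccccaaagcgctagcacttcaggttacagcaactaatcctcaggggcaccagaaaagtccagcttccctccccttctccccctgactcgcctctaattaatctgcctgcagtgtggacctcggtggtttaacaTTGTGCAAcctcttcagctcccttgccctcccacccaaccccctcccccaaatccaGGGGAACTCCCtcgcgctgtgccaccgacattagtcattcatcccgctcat

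The promoter table matched 6 of the 8 genes, all but Hp and Orm1. The C/EBP motif was found in 6 of 6, and in 40.7% of the 32851 promoters in the table. Saa3 had 4 matches, at -216, -191, -129 and -99 as counted upstream from the gene start to the first base of the match. Saa1 had 2, at -182 and -86, and Saa2, Lcn2, Chi3l1 and Ptx3 had 1 each. The Saa1 and Saa2 promoters were 95.3% identical over their alignment and shared the match TTGCACAA, while Saa1 and Saa3 were 50.9% identical. The NF-kB consensus was found in 2 of 6, against 8.46% of all promoters: in Chi3l1 as GGGACTCCCC from -179 to -170, and in Ptx3 as 2 overlapping matches, GGGGAACTCC and GGGAACTCCC, across the gene start. None of the 6 held the STAT motif TTCNNNGAA (8.30% of all promoters), the aryl hydrocarbon receptor core GCGTG (32.4%) or TATAAA (13.6%). These are letter matches in a fixed window, and factor binding was not measured.

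Lcn2 is a lipocalin that binds bacterial iron-carrying siderophores and is abundant in the regressing mammary gland. Lcn2 (ENSMUSG00000026822, chromosome 2, 32274645 to 32278264, minus strand, GRCm39) had 273 and 424 CPM in Control and 734 and 845 CPM in PM2.5. The groups did not overlap, although the second Control library lay well above the first. The means were 349 ± 107 and 790 ± 78.8 CPM (SD, n = 2 each), with a log2 fold change of 1.18. The ratio between single libraries ran from 1.73 to 3.10, the lowest range among the members. Orm1, or alpha-1-acid glycoprotein, is a plasma lipocalin that carries small lipophilic molecules. Orm1 (ENSMUSG00000039196, chromosome 4, 63262797 to 63266400, plus strand, GRCm39) had 6 and 12 counts in Control and 30 and 31 in PM2.5. Both PM2.5 libraries were above both Controls, at means of 1.54 ± 0.127 against 0.390 ± 0.106 CPM (SD, n = 2 each). The ratio of summed scaled counts was 3.83, with an exact 95% interval of 2.24 to 6.89.

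Near copies of Orm1 lie beside it on chromosome 4. Orm2, whose coding sequence is 89.9% identical to that of Orm1, had 18 and 40 counts in Control and 18 and 30 in PM2.5. Its groups overlapped and it was not called (log2 fold change -0.07 ± 0.39, SE; edgeR adjusted p = 0.908). Orm3, 86.1% identical to Orm1, had 4 and 13 counts in Control and 12 and 9 in PM2.5 and was not tested. The difference between Orm1 and its copies was not tested. The raw count was 85.7% to 96.8% of total gene reads for Orm1, 69.2% to 85.7% for Orm2 and 28.3% to 36.4% for Orm3. It was 82.6% to 100% for Hp and 84.8% to 89.2% for Ptx3. Whether near copies share reads was not tested, and the levels of the 3 Orm genes are uncertain to that extent.

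Haptoglobin binds free haemoglobin and limits the oxidative damage it does. Hp (ENSMUSG00000031722, chromosome 8, 110301760 to 110305804, minus strand, GRCm39) had 19 and 36 counts in Control and 226 and 284 in PM2.5. The PM2.5 libraries were higher by at least 7.85-fold in any pair of libraries. The means were 1.20 ± 0.281 and 12.96 ± 2.84 CPM (SD, n = 2 each), with a log2 fold change of 3.40. Cd163, the macrophage receptor for haptoglobin-haemoglobin complexes, had at most 1 count in any library. Hepatocytes are the main source of Hp in the body, and 12 of 12 hepatocyte markers averaged below 1 CPM here in both groups.

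Chi3l1 is a secreted lectin that binds chitin but lacks chitinase activity. Chi3l1 (ENSMUSG00000064246, chromosome 1, 134109914 to 134117919, plus strand, GRCm39) had 7 and 12 counts in Control and 565 and 619 in PM2.5. It was close to the detection floor in both Control libraries and well above it in both PM2.5 libraries. The means were 0.417 ± 0.069 and 30.004 ± 3.70 CPM (SD, n = 2 each). The log2 fold change was 6.12, and only 4 of the 12478 tested genes had a larger one. The ratio of summed scaled counts was 70.5, with an exact 95% interval of 44.9 to 117.5. Ptx3 is a long pentraxin that binds microbes and complement component C1q. Ptx3 (ENSMUSG00000027832, chromosome 3, 66127331 to 66133226, plus strand, GRCm39) had 17.0 and 12.3 CPM in Control and 87.0 and 72.0 CPM in PM2.5. Both PM2.5 libraries were above both Controls by at least 4.24-fold, with means of 14.6 ± 3.34 and 79.5 ± 10.6 CPM (SD, n = 2 each) and a log2 fold change of 2.46.

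CPM does not allow for gene length, so the order of levels among the members was taken from the authors' RPKM, averaged over the libraries of a group. In Control the order was Lcn2 at 235 RPKM, Saa3 at 27.2, Ptx3 at 6.40, Hp at 0.741, Orm1 at 0.419, Chi3l1 at 0.158, Saa2 at 0.1005 and Saa1 at 0.0530 RPKM. The ranges over libraries overlapped for Chi3l1 with Saa2 and for Saa2 with Saa1, and for no other neighbours in that order. In PM2.5 it was Lcn2 at 540 RPKM, Saa3 at 236, Ptx3 at 35.4, Chi3l1 at 11.5, Hp at 8.14, Orm1 at 1.68, Saa1 at 0.961 and Saa2 at 0.789 RPKM, and of neighbours only Saa1 and Saa2 overlapped. Chi3l1 thus stood below Hp and Orm1 in Control and above both in PM2.5.

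The first place in PM2.5 depended on the length used. The RPKM of Saa3 corresponds to a length of 2606 bases, the union of its exons in the GRCm38 annotation, whereas its principal transcript has 555 bases. For Lcn2 the lengths were 1236 and 915 bases. Divided by principal transcript length, Saa3 in PM2.5 had 1275 to 1350 CPM per kilobase and Lcn2 802 to 924, so Saa3 came first. In Control, Lcn2 stayed above Saa3 by either length, at a mean of 381 against 154 CPM per kilobase of principal transcript. The principal-length order was added after the data were seen.

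**Figure D2:**
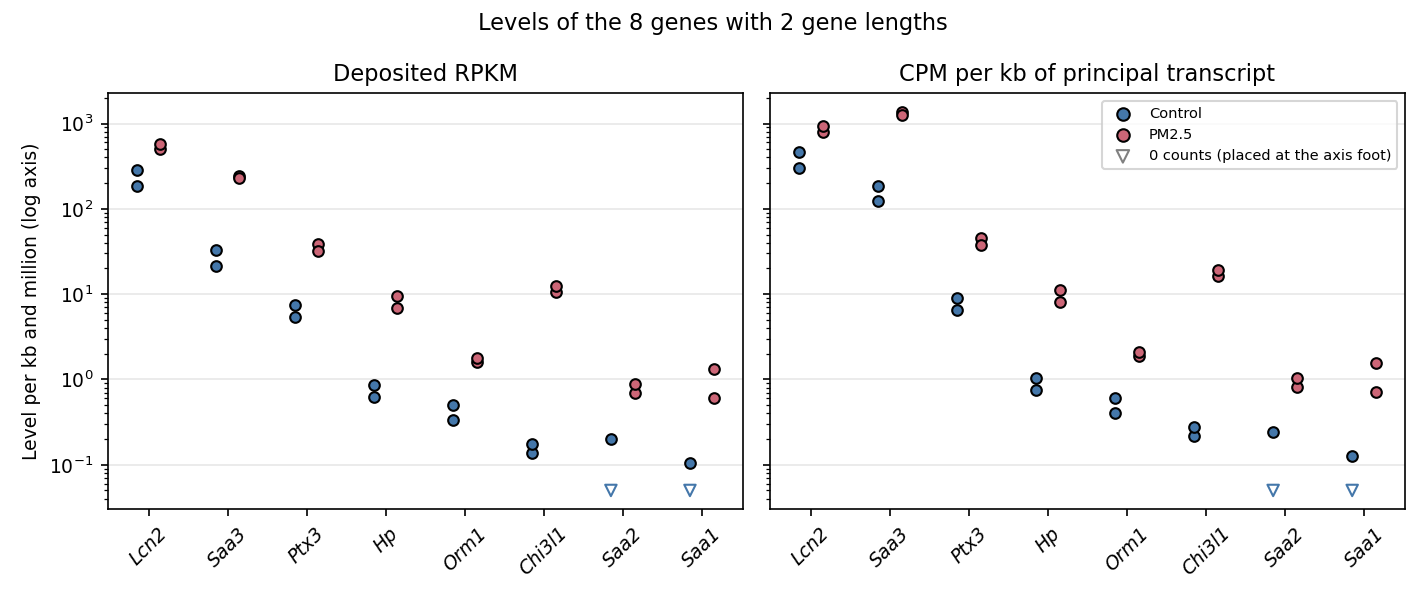
RPKM (left) and CPM per kilobase of principal transcript (right) of each gene on a log axis, with 1 point per library and open triangles at the foot of the axis for libraries with 0 counts. Lcn2 is first in both groups by RPKM, and Saa3 passes Lcn2 in PM2.5 by principal transcript length.

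The 2 Control libraries differed from each other for several members. The second Control library exceeded the first by 1.51-fold for Saa3 (exact 95% interval 1.42 to 1.62) and by 1.55-fold for Lcn2 (1.504 to 1.61). Among the 9309 tested genes averaging at least 10 CPM, 0.473% were over 1.5-fold higher in the second Control library and 0.0645% over 1.5-fold higher in the first. Ptx3 went the other way, at 0.722 of the first library (interval 0.616 to 0.845). For Hp, Chi3l1 and Orm1 the interval of the Control ratio included 1. Between the PM2.5 libraries the ratio of the second to the first was 0.944 for Saa3, 1.15 for Lcn2 and 0.828 for Ptx3. It was 1.37 for Hp (interval 1.14 to 1.63), 1.19 for Chi3l1 (1.06 to 1.34) and 1.12 for Orm1 (0.658 to 1.92). For Saa3, Lcn2 and Ptx3, all differences between replicates were smaller than those between the groups.

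The regions around the other members differed in how their genes were called, where 19.2% of all tested genes were called higher and 20.4% lower. Within 5 Mb of Orm1, 26 of 31 tested genes were called lower and 0 higher, with a median log2 fold change of -0.57. Around Hp, 74 of 109 were lower and 7 higher, with a median of -0.36, and around Lcn2 53 of 125 were lower and 13 higher, with a median of -0.16. Around Ptx3, 14 of 27 were higher and 1 lower, with a median of 0.24. With the local median subtracted, a comparison added after the data were seen, the log2 fold change was 2.498 for Orm1, 3.75 for Hp, 1.33 for Lcn2, 6.01 for Chi3l1, 2.22 for Ptx3 and 3.07 for Saa3. No regional median was as large as the member's own log2 fold change, so this subtraction could not turn a member's direction. The part of the regional shift in the members' levels was not tested.

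**Figure D3:**
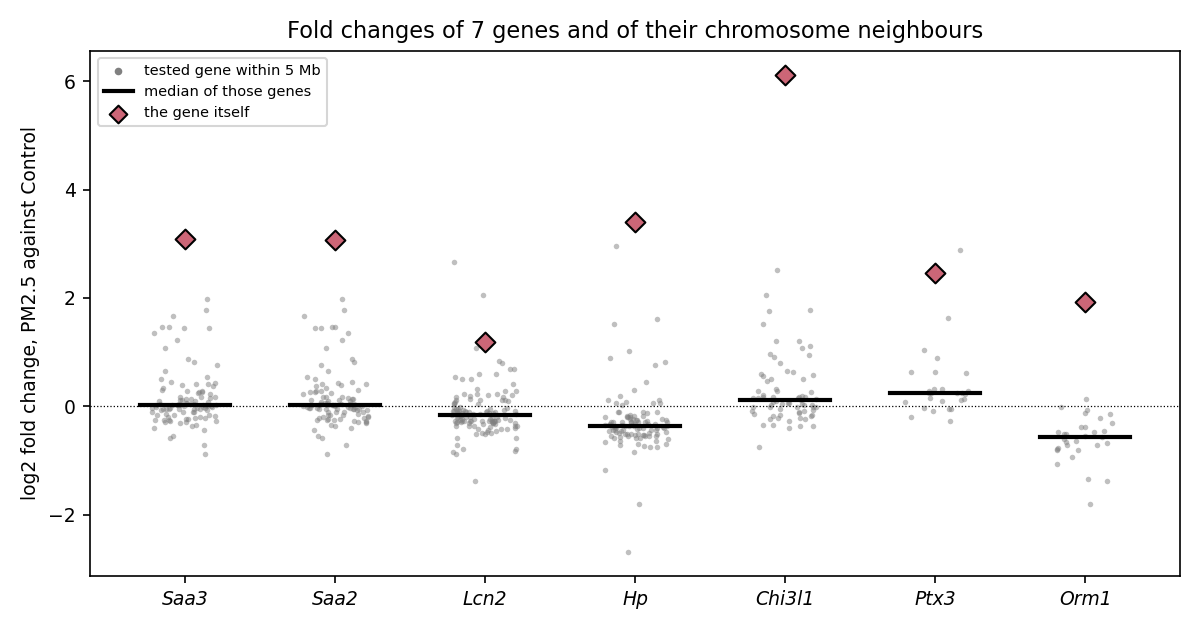
Log2 fold change, PM2.5 against Control, of the tested genes within 5 Mb of each of the 7 tested members (grey points, spread sideways for legibility), with their median as a line and the member as a diamond. The members lie above their regional medians, which run from -0.57 around Orm1 to 0.24 around Ptx3.

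Other genes of the response were taken from lists of known roles and tested in the fit over all genes, where the median log2 fold change was 0.01. That fit called 19.2% of all tested genes higher and 20.4% lower. The lists were drawn up with earlier results of these data known, so their counts, medians and p-values are descriptive. Of 34 other positive acute-phase proteins, 14 were tested, 9 rose and 1 fell, with a median log2 fold change of 1.12 among those tested. Il1rn, the interleukin-1 receptor antagonist, rose from 0.599 ± 0.030 to 19.6 ± 2.44 CPM (SD, n = 2 each; log2 fold change 5.01 ± 0.20, SE; edgeR adjusted p = 1.05e-07). Serpina3n, a protease inhibitor, rose from 0.325 to 4.54 CPM (log2 fold change 3.74 ± 0.34, SE; edgeR adjusted p = 2.40e-05). For both genes the Control side has few counts, and the SE is smaller than counting error alone would give. Lbp, which carries bacterial lipopolysaccharide to its receptor, rose from 1.93 to 21.4 CPM (log2 fold change 3.42 ± 0.20, SE; edgeR adjusted p = 1.63e-06). Complement C3 rose from 544 to 1414 CPM (log2 fold change 1.38 ± 0.13, SE; edgeR adjusted p = 2.44e-05).

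The list was not uniform. C4b, Cfb, Cp and Steap4, named after their values were seen, also rose, as did Saa4. The call of Cp was lost with DESeq2 (adjusted p = 0.123), and that of Steap4 with DESeq2 (adjusted p = 0.274), on the RPKM scale and without the first Control library (edgeR adjusted p = 0.0504) or the second PM2.5 library (edgeR adjusted p = 0.0577). Orm2, Mt1, Mt2 and Cd14 were not called. The log2 fold changes of the metallothioneins Mt1 and Mt2 turned with the Control library used: they were -0.72 and -0.52 without the first (edgeR adjusted p = 2.54e-06 and 2.04e-04) and 0.04 and 0.27 without the second (edgeR adjusted p = 0.732 and 0.0337). Mt1 was also called lower in the fit with a replicate block (log2 fold change -0.35, edgeR adjusted p = 0.00811) and without the second PM2.5 library (-0.47, edgeR adjusted p = 0.0402), and both genes were called lower with no filter on low counts. Cd14 was called lower without the first Control library (log2 fold change -0.25, edgeR adjusted p = 0.0250). A further 10, among them Crp, Fgb, Fgg and A2m, had 0 counts in every library. Of 10 negative acute-phase proteins, which fall in blood during inflammation, 9 had 0 counts in every library, albumin and transthyretin among them, and Apoa2 was too low to test.

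Relatives by family gave fewer tested genes. Of 26 genes of the amyloid A, orosomucoid, pentraxin, chitinase-like and lipocalin families, 7 were tested, 3 rose and 0 fell. Beside Saa4, these were Ctbs, a lysosomal chitobiase, from 6.49 to 11.99 CPM (log2 fold change 0.88, edgeR adjusted p = 6.04e-04), and Chid1, a chitinase-domain protein, from 47.0 to 60.5 CPM (log2 fold change 0.36, edgeR adjusted p = 0.00162). Nptxr, a neuronal pentraxin receptor, had 182 and 188 CPM and was not called (edgeR adjusted p = 0.600). The other chitinase-like genes Chil3, Chil4, Chil5 and Chil6, the chitinases Chia1 and Chit1, and the short pentraxin Crp had 0 counts in all 4 libraries.

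Among 28 receptors and binding partners, 16 were tested, 5 rose and 4 fell. These were 31.25% and 25% of those tested, against 19.2% higher and 20.4% lower over all tested genes. Tlr2, a receptor at which serum amyloid A acts, rose from 78.1 to 128 CPM (log2 fold change 0.71, edgeR adjusted p = 4.68e-05). Tlr4, another receptor at which it acts, named after its values were seen, fell from 52.9 to 40.7 CPM (log2 fold change -0.38, edgeR adjusted p = 0.00260). Tlr4 lies within 5 Mb of Orm1, where 26 of 31 tested genes were called lower, with a median log2 fold change of -0.57. The part of that regional shift in the fall of Tlr4 was not tested. Mmp9, which forms a complex with Lcn2, rose from 30.1 to 109 CPM (log2 fold change 1.85, edgeR adjusted p = 2.54e-07). Vim, an intermediate filament protein, fell by 0.58 on the log2 scale (edgeR adjusted p = 3.56e-05). The formyl peptide receptors Fpr1 and Fpr2, also receptors for serum amyloid A, had 0 counts throughout. The number of receptors called higher was 3 without either Control library in turn, without the first PM2.5 library and with DESeq2.

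Of 31 inducing cytokines and their receptors, 19 were tested, 7 rose and 4 fell. Lif, a cytokine of the interleukin-6 family, rose from 19.5 to 41.2 CPM (log2 fold change 1.08, edgeR adjusted p = 9.09e-06). The receptor chains Il6ra (37.3 to 59.1 CPM, edgeR adjusted p = 5.43e-05), Il6st (501 to 664 CPM, edgeR adjusted p = 3.94e-04), Il1r1 (52.2 to 75.3 CPM, edgeR adjusted p = 2.08e-04) and Tnfrsf1b (114 to 164 CPM, edgeR adjusted p = 1.01e-04) also rose. So did Osmr (119 to 141 CPM, edgeR adjusted p = 0.0472) and Lifr, both named after their values were seen. Lifr had few counts, 1 and 4 in Control and 55 and 24 in PM2.5 (log2 fold change 4.08, edgeR adjusted p = 5.09e-04). The 4 that fell were named after their values were seen. They were Il1rap, the partner chain of Il1r1 (31.6 to 22.9 CPM, edgeR adjusted p = 0.00130), Il17ra (50.7 to 35.3 CPM, edgeR adjusted p = 2.79e-04), Il11ra1 (27.97 to 19.6 CPM, edgeR adjusted p = 0.00113) and the cytokine Clcf1 (45.8 to 39.7 CPM, edgeR adjusted p = 0.0345). The call of Clcf1 was lost with DESeq2 (adjusted p = 0.148), with library-size or upper-quartile scaling, with log2(RPKM + 1), and without the second Control library or either PM2.5 library (edgeR adjusted p = 0.0800, 0.182 and 0.0930). Il6 itself had 5.19 and 4.92 CPM and was not called (edgeR adjusted p = 0.747), and Il1b and Osm had 0 counts in every library. Il1a was too low to test, with 0 and 3 counts in Control and 16 and 9 in PM2.5.

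Of 37 transcriptional regulators of these genes, 29 were tested, 11 rose and 3 fell. Jak2, a kinase of cytokine receptors, rose from 55.4 to 144 CPM (log2 fold change 1.38, edgeR adjusted p = 2.08e-07), and Tnfaip3, a target and inhibitor of NF-kB, rose from 20.6 to 79.7 CPM (log2 fold change 1.94, edgeR adjusted p = 3.65e-07). Nfkbie, an NF-kB inhibitor, rose from 22.3 to 36.7 CPM (edgeR adjusted p = 9.22e-05). Jak1 fell from 340 to 275 CPM (edgeR adjusted p = 0.00125). Cebpd, a C/EBP factor of the acute-phase response, named after its values were seen, fell from 116 to 71.9 CPM (log2 fold change -0.69, edgeR adjusted p = 9.72e-05). Nfkbiz, also named after its values were seen, fell from 74.8 to 61.8 CPM (log2 fold change -0.28, edgeR adjusted p = 0.00777). It was not called against a minimum change of 1.5-fold. Cebpb, Stat3 and Rela transcripts were not called (edgeR adjusted p = 0.133, 0.862 and 0.714), although Cebpb, with a log2 fold change of 0.14, was called higher without the second Control library (edgeR adjusted p = 0.0262), with library-size scaling and in the blocked fit. Tested against a minimum change of 1.5-fold, Cebpd, Jak1, Nfkbie, Il6ra, Il6st, Il1r1, Tnfrsf1b, Tlr2, Vim, Tlr4, Il1rap, Il17ra, Il11ra1, Clcf1, Ctbs, Chid1, Cp, Steap4, Saa4 and Hps5 were not called. Transcript levels do not show the activity of these factors, which was not measured.

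**Figure D4:**
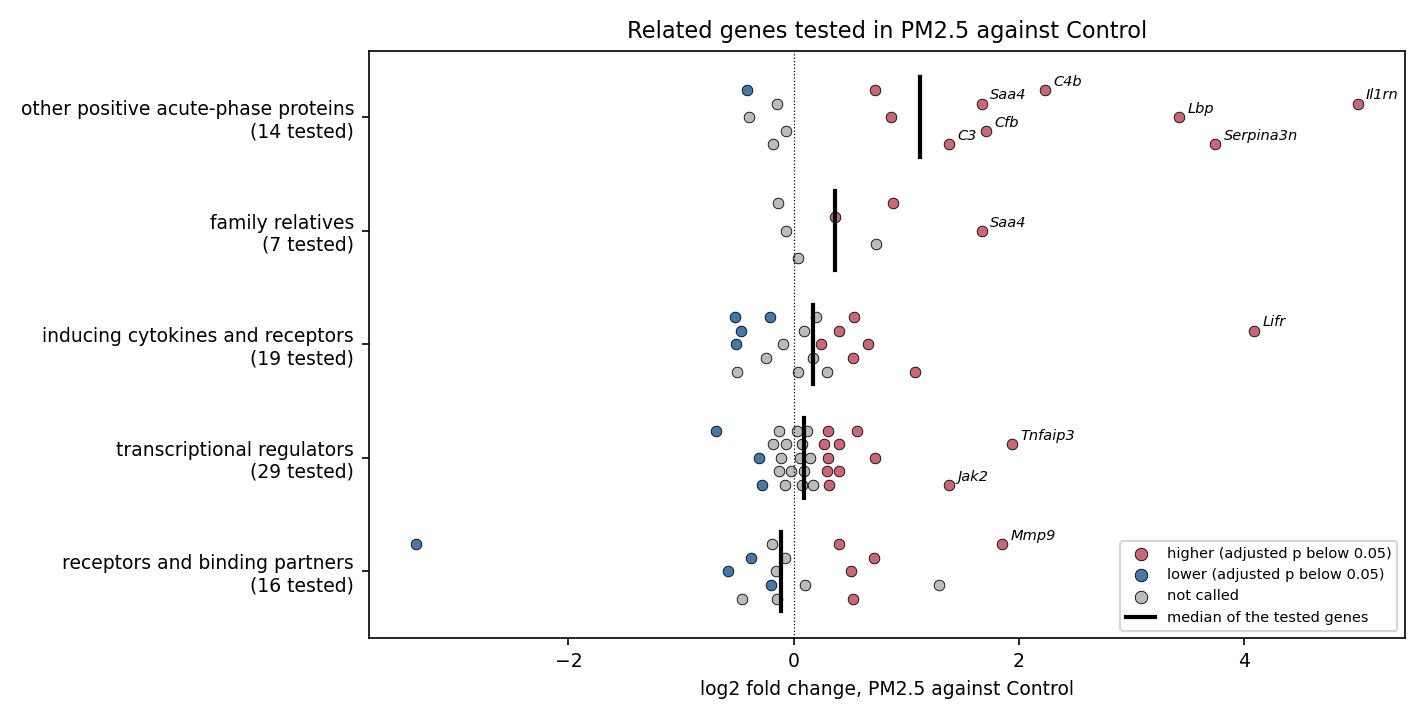
Log2 fold change, PM2.5 against Control, of the tested genes of each list, coloured by edgeR call, with the list median as a bar. Points spread to the right for the other positive acute-phase proteins (median 1.12), while the medians of the regulators and of the receptors lie at 0.09 and -0.11.

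The genes whose pattern over the 4 libraries was nearest to each member were found by Euclidean distance in centred log2 CPM, for the 4 members with at least 10 counts in every library. Selp (distance 0.190), Ncf4 (0.196) and Syt7 (0.264) lay nearest to Saa3, and Abca1 (0.0769), Lepr (0.0850) and Eno2 (0.0987) to Lcn2. Serping1 (0.244), Lbp (0.247) and Neurl3 (0.298) were nearest to Hp, and Echdc2 (0.236), S100a8 (0.250) and Mgam (0.271) to Ptx3. Each distance covers only 4 libraries in 2 groups, and several of these genes had few counts.

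Macrophages and neutrophils are known sources of Chi3l1, Lcn2 and Ptx3, and their markers were followed beside these genes. The 16 macrophage and monocyte markers summed to 9.20 to 10.2 CPM in Control and 16.3 to 18.6 CPM in PM2.5, led by Cd68 and Lyz2, with Itgam, Tyrobp, C1qa and C1qc at 0. The 12 neutrophil markers summed to 1.68 to 1.82 CPM in Control and 6.27 to 7.22 CPM in PM2.5, led by Camp and S100a8, with Ly6g, Mpo, Csf3r and Retnlg at 0. Of the macrophage and monocyte markers, 14 of 16 averaged below 1 CPM, as did 10 of 12 neutrophil markers. Cd68, Camp and S100a8 were called higher, and Lyz2, the only other marker tested, was not called. Ptprc had at most 3 counts in any library and S100a9 at most 1. Both sums were higher in PM2.5, as were the members, and the part of these cells in the members' levels was not tested.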

How the data were processed

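Bulk RNA-seq of 2 Control and 2 PM2.5 libraries was used, mapped to the groups by the labels. Per the labels' protocols, 750 ng of RNA went into a stranded polyA ligation kit. Per the file headers, the authors deposited raw counts per gene, total gene reads, which are also counts and which the headers do not define, and RPKM. The genome was GRCm39, per the submitters' processing notes, and aligner and counter were not given in the sources used here.

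Raw counts were tested with edgeR 4.0.16 (R 4.3.3; filterByExpr, TMM, quasi-likelihood F test, no covariate), with Benjamini-Hochberg adjustment over all 12478 genes kept. The procedure was tested on simulated data. Alternatives used DESeq2 1.42.0, limma 3.58.1, other scalings and filters, a minimum change of 1.5-fold, each library left out, RPKM with pseudocounts of 0.1 or 1, total gene reads and a replicate block. Libraries held 18548478 to 26206329 counts. Intervals are exact at 95% and, like the floor of 3 counts, cover counting error only. The 2 libraries of a group differed by more than sampling noise (chi-square per gene 6.92 in Control and 3.63 in PM2.5) and were counted separately.

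The members and lists were chosen with earlier results of these data known. Named genes were all members, the called non-overlapping list genes of smallest p averaging at least 1 CPM (up to 4 a list), the most abundant gene of each list, the 3 nearest patterns per member, the genes flanking the Saa genes, and leading or undetected markers. The protein comparison planned for the Saa genes was made on coding nucleotides of the GRCm38 annotation instead. Some genes that the rule took are left out of the text and are not reported here.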

Additional observations from a re-analysis of the deposited data

How the results depend on the processing

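No log2 fold change of the 7 tested members changed sign in the settings that gave one, which were 17 for each member but Saa2, with 15. Saa1 was not followed in this way. The members were picked with this difference known and their groups did not overlap, so the kept sign is no test of them. All 8 members had both PM2.5 libraries above both Controls with library-size scaling, median-ratio scaling and total gene reads; leaving out a library cannot change that count. Members called higher numbered 6 to 8. Genes called higher numbered 2400, against 1581 with DESeq2 and 401 with a minimum change of 1.5-fold, and genes called lower 2545, against 114 with that minimum. Leaving out each library gave 1516 to 2299 higher and 1680 to 2578 lower, with the fewest without the second PM2.5 library. Library-size scaling gave 3079 higher and 1880 lower, or 62.1% of calls higher against 48.5%. Of the 83 tested list genes, 34 were higher and 12 lower, against 11 and 1 with the minimum change, under which 11 of the 20 called named genes lost their call. Log2 fold changes of genes that were not called changed sign in some settings. With each library left out they ran from -0.00423 to 0.075 for Nptxr, -0.54 to 0.35 for Orm2, -0.33 to 0.22 for Il6, -0.72 to 0.0412 for Mt1, -0.52 to 0.27 for Mt2, -0.0157 to 0.0727 for Rela, -0.00476 to 0.0369 for Saal1 and -0.13 to 0.0894 for Stat3. Other reversals were -0.0119 for Nptxr with total gene reads, -0.00075 for Saal1 with no filter, and for Stat3 0.0427 with library-size scaling, 0.0236 with upper-quartile scaling, 0.00846 with log2(RPKM + 0.1) and 0.00802 with log2(RPKM + 1). Log2 fold changes of the low-count members moved most with log2(RPKM + 1), to 3.43 for Chi3l1, 2.38 for Hp, 0.92 for Orm1 and 0.71 for Saa2. With log2(RPKM + 0.1) that of Saa2 was 2.35. It was 1.89 without the second Control library, and no fold is given without the first, where the remaining Control count is 0. The replicate block, for which the labels state no pairing and the numbers had a correlation of 0.16 over 2 pairs, gave 2797 genes higher and 2976 lower, 7 members higher, and 38 list genes higher and 16 lower. At this depth Saa1, Saa2 and Orm1 rest on few reads.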
